A study of Danio rerio with 12 samples.

Results

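The genes described here are 10 Notch receptors, ligands and neural her genes, of 14850 genes listed in both expression tables. Each was followed by its symbol through every library of the study. They were 4 receptors (notch1a, notch1b, notch2 and notch3), 4 ligands (dla, dlb, jag1b and jag2b) and the 2 her genes her6 and her9. The set was defined by symbol and not by a measured value, although earlier results of these data were known by then. All 10 genes passed the minimum count for testing at both stages.

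Notch receptors are held in the cell membrane and are cut when a Delta or Jagged ligand on a neighbouring cell binds them. The freed intracellular domain enters the nucleus, joins the DNA-binding protein Rbpj and switches on target genes, among them many of the Hes/her family of transcriptional repressors. In the zebrafish neural plate this exchange between neighbours limits how many cells become neurons at one time, and her repressors keep the remaining cells as progenitors. Whether her6 and her9 follow Notch signalling in these embryos was not tested.

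RNA was taken from pools of whole Ekwill zebrafish embryos at 6hpf, during gastrulation, and at 12hpf, when the hindbrain and the first somites are forming. TALE KD embryos were injected with a mixture of morpholinos against Prep1, Pbx2 and Pbx4, transcription factors of the TALE homeodomain class, in water with phenol red, while control embryos received the water and dye without any morpholino. Each of the 4 groups (control and TALE KD at each stage) had 3 libraries labelled as biological replicates, and the comparison asked which genes depend on these factors. Because the RNA came from whole embryos, fewer cells expressing a gene and less RNA per cell cannot be told apart in any value given here. The effect of a morpholino as such cannot be told apart from that of losing the TALE factors, since the controls carried no control oligo.

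Library totals lay between 11884805 and 15031243 estimated counts at 6hpf and between 19783326 and 40924982 at 12hpf. Transcripts of the targeted genes were not lower in TALE KD embryos: pbx2 measured 83.4 to 90.2 CPM (counts relative to library size) in the controls at 12hpf and 235 to 257 CPM in TALE KD. The pknox1.1 gene, which encodes Prep1.1, measured 46.7 to 49.1 CPM in the controls and 54.2 to 57.2 CPM in TALE KD, and pbx4 281 to 329 CPM and 312 to 390 CPM. RNA levels do not report how much protein a morpholino leaves, so these values do not check the knockdown. Replicate 3 of both groups at 12hpf stood apart from its fellows. The chi-square of counts between libraries, divided by the degrees of freedom, was 13.6 and 13.0 for control replicate 3 against the other controls, which gave 2.69 between them. For TALE KD replicate 3 it was 18.8 and 25.5, against 3.21. The study left out 1 replicate at 12hpf as an outlier without naming it, and all 6 libraries of that stage were kept here.

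Levels are given as CPM scaled by TMM factors over the 12 libraries. Since transcript length is not part of this unit, levels are compared between samples and not between genes. Replicates are always listed in the order 1, 2, 3.

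**Figure D1:**
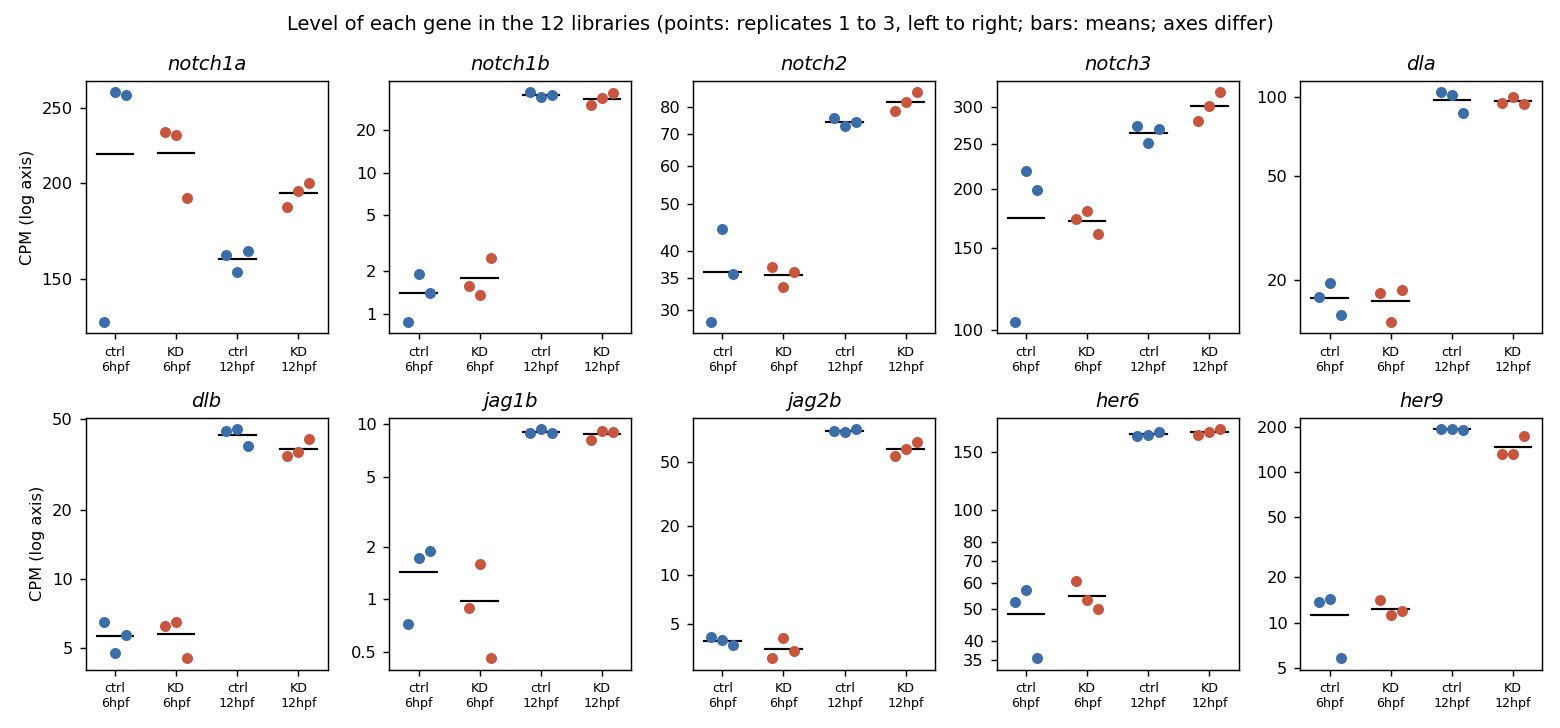
Level of each of the 10 genes in the 12 libraries, in CPM on log axes whose ranges differ between panels; points are replicates 1 to 3 of control (blue) and TALE KD (red) groups, bars are group means. Stage separates the libraries of 9 genes, notch1a being the exception, while control replicate 1 at 6hpf sits low for notch1a (132 CPM) and notch3 (104 CPM), and control replicate 3 at 6hpf sits low for her9 (5.79 CPM).

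From 6hpf to 12hpf, 9 of the 10 genes rose in control embryos and the same 9 rose in TALE KD embryos, and notch1a was the gene that did not. A gene counted as called where its adjusted p did not exceed 0.01 and its level changed 1.5-fold or more, and by that rule 32.8% of all tested genes rose with stage in controls and 31.5% in TALE KD. The libraries of the 2 stages did not overlap for the 9 genes in either condition, a separation in the higher direction that 43.3% of tested genes showed in controls and 42.2% in TALE KD. The median log2 fold-change of the 10 genes was 2.57 in controls, beside 0.09 over all genes tested.

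Among the receptors, notch1b changed the most with stage. It measured 0.883, 1.93 and 1.41 CPM in control libraries at 6hpf, which were 11, 27 and 18 counts, and 37, 34.2 and 35.3 CPM at 12hpf. In TALE KD libraries it measured 1.57, 1.36 and 2.5 CPM at 6hpf and 30.2, 33.7 and 36.5 CPM at 12hpf. Every 12hpf library therefore lay far above every 6hpf library, and the log2 fold-change was 4.64 in controls (SE 0.20, adjusted p = 9.81e-11) and 4.24 in TALE KD (SE 0.19, adjusted p = 2.01e-10).

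The paralog notch1a was already abundant at 6hpf and followed no such course. Control libraries held 132, 262 and 260 CPM at 6hpf and 161, 153 and 163 CPM at 12hpf. TALE KD libraries held 233, 231 and 191 CPM at 6hpf and 186, 195 and 200 CPM at 12hpf. The stages overlapped in both conditions, in controls through replicate 1 at 6hpf, the lowest of all 12 libraries, and the log2 fold-changes of -0.46 in controls (SE 0.19, adjusted p = 0.0384) and -0.17 in TALE KD (SE 0.19, adjusted p = 0.406) were not called. Without control replicate 1 at 6hpf the control value was -0.72 and was called, with an adjusted p of 3.97e-06.

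The notch2 receptor measured 28.4, 44.3 and 35.7 CPM in controls at 6hpf and 75.7, 73 and 74.4 CPM at 12hpf. In TALE KD the libraries held 36.9, 33.6 and 36 CPM and then 78.2, 81.8 and 85.7 CPM. The stages did not overlap, and the level rose by 1.04 on the log2 scale in controls (SE 0.12, adjusted p = 2.03e-06) and 1.21 in TALE KD (SE 0.12, adjusted p = 4.86e-07).

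For notch3, the control libraries measured 104, 219 and 199 CPM at 6hpf and 274, 251 and 269 CPM at 12hpf. The TALE KD libraries measured 173, 180 and 160 CPM and then 280, 302 and 323 CPM. The 12hpf libraries were all higher, but the increase was the smallest of the 9, a log2 fold-change of 0.60 in controls (SE 0.19, adjusted p = 0.00958), just past both thresholds, and 0.82 in TALE KD (SE 0.19, adjusted p = 0.0013). The control call was lost when control replicate 1 at 6hpf (0.34) or any single control library at 12hpf (0.58 to 0.65, adjusted p = 0.0155 to 0.027) was left out.

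Of the Delta ligands, which carry the signal between neighbouring cells of the neural plate, dla and dlb rose several-fold. The Delta genes dlc and dld, outside the set, were not called with stage (log2 fold-changes of -0.31 and -0.13 in controls and -0.20 and 0.03 in TALE KD), and dll4 was called in controls (2.62) and not in TALE KD (1.38, adjusted p = 0.0112), a difference that did not pass the interaction test (adjusted p = 0.62). The dla gene measured 17.3, 19.5 and 14.7 CPM in controls at 6hpf and 104, 102 and 86.5 CPM at 12hpf. In TALE KD it measured 17.8, 13.9 and 18.3 CPM and then 95.2, 100 and 94.3 CPM. No library of one stage reached those of the other, and the fold-change was 5.67 in controls and 5.81 in TALE KD (adjusted p = 2.94e-10 and 3.12e-10).

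The second Delta ligand, dlb, measured 6.5, 4.79 and 5.71 CPM in controls at 6hpf and 44.4, 45.1 and 38.1 CPM at 12hpf. The TALE KD libraries held 6.28, 6.5 and 4.53 CPM and then 34.3, 35.8 and 41 CPM. The stages were again fully separated, with a fold-change of 7.53 in controls and 6.37 in TALE KD (adjusted p = 3.75e-10 and 9.93e-10).

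The Jagged ligand gene jag1b was low at 6hpf, at 0.722, 1.72 and 1.88 CPM in controls and 0.898, 1.59 and 0.462 CPM in TALE KD, which were 5 to 24 counts. At 12hpf it measured 8.85, 9.32 and 8.91 CPM in controls and 8.07, 9.09 and 9.04 CPM in TALE KD. All 12hpf libraries lay above all 6hpf libraries, and the 6hpf counts leave the fold-changes of 6.21 and 8.64 with wide 95% intervals, 2.02 to 3.25 and 2.46 to 3.77 on the log2 scale.

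The other Jagged gene, jag2b, had the lowest p of the 10 for the stage difference in both conditions. Controls measured 4.17, 4 and 3.68 CPM at 6hpf and 76.9, 75.5 and 79.1 CPM at 12hpf. TALE KD libraries measured 3.07, 4.08 and 3.42 CPM and then 54.3, 59.7 and 66 CPM. With replicates this close, the log2 fold-change was 4.29 in controls (SE 0.11, adjusted p = 1.31e-12) and 4.09 in TALE KD (SE 0.11, adjusted p = 2.88e-12).

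Both her genes encode Hes-type repressors, her6 being related to mammalian Hes1 and her9 being known in zebrafish from the stripes of neural plate that lie between the proneural clusters. The her6 gene measured 52.6, 56.9 and 35.4 CPM in controls at 6hpf and 168, 169 and 172 CPM at 12hpf. In TALE KD it measured 60.8, 53.3 and 49.9 CPM and then 169, 173 and 176 CPM. The 12hpf libraries were all higher, by 3.51-fold in controls and 3.15-fold in TALE KD (adjusted p = 2.11e-08 and 5.39e-08).

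The her9 gene measured 13.6, 14.4 and 5.79 CPM in controls at 6hpf and 193, 193 and 191 CPM at 12hpf. In TALE KD it measured 14.1, 11.2 and 11.9 CPM and then 133, 132 and 174 CPM. No library of one stage reached those of the other, and the level rose 17.0-fold in controls (log2 4.08, SE 0.23, adjusted p = 1.37e-09) and 11.8-fold in TALE KD (log2 3.56, SE 0.22, adjusted p = 5.37e-09).

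**Figure D2:**
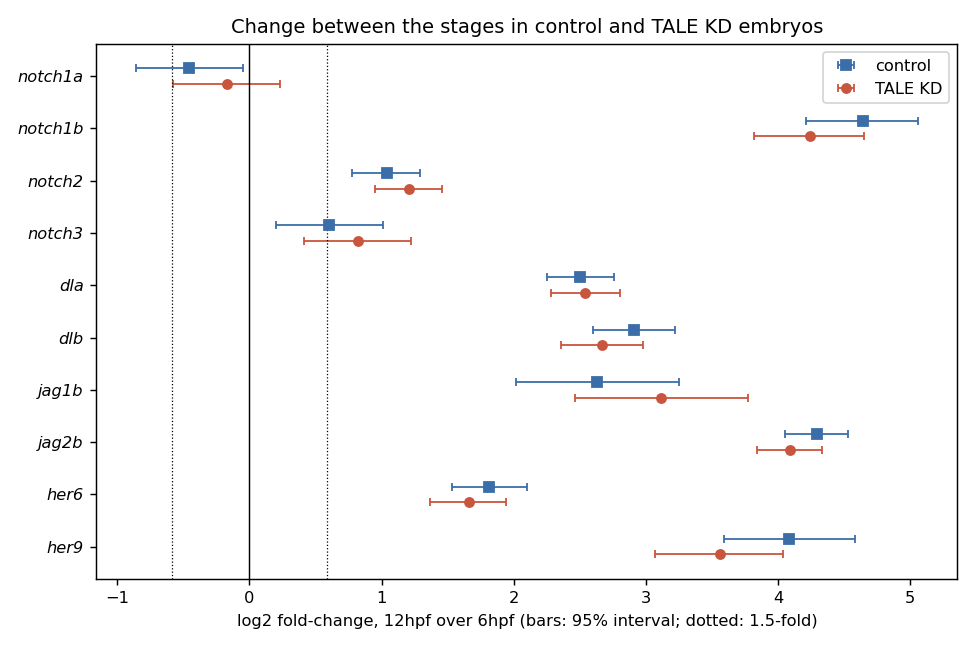
Log2 fold-change from 6hpf to 12hpf for the 10 genes in control (blue squares) and TALE KD (red circles) embryos, with 95% intervals; dotted lines mark a 1.5-fold change. Values run from -0.46 for notch1a to 4.64 for notch1b in controls, and the control and TALE KD intervals overlap for every gene.

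At 6hpf TALE KD and control embryos did not differ detectably in any of the 10 genes. None was called by edgeR's quasi-likelihood test, where 0.0392% of all genes were, and none by DESeq2, where 0.274% were. None had an unadjusted p under 0.05, where 5.66% of all genes had such a p. The log2 fold-changes ran from -0.52 for jag1b to 0.34 for notch1b, every adjusted p was 0.998, and the groups overlapped for all 10 genes, where 5.06% of genes had TALE KD libraries entirely above the controls and 5.98% entirely below. Over all genes 4 were called, or 23 (0.225%) in a fit that held replicate number as a block, and none of the 10 was among either.

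What these 6 libraries could show differed between the genes. For dla the 95% interval of the log2 fold-change was -0.40 to 0.31, for notch2 -0.37 to 0.31 and for her6 -0.20 to 0.56, so that a 1.5-fold difference in either direction lay outside the interval. For notch1a the interval was -0.50 to 0.51 and for notch3 -0.53 to 0.48, also within 1.5-fold. The intervals of jag2b (-0.62 to 0.30), her9 (-0.53 to 0.80), notch1b (-0.50 to 1.17) and jag1b (-1.62 to 0.58) reached past it on at least one side, and that of dlb (-0.43 to 0.50) did not.

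Single control libraries stood apart at this stage for several of the genes. Control replicate 1 held 0.505 times the mean of the other 2 controls for notch1a and 0.499 times for notch3, ratios lower than those of all but 1.89% and 1.8% of genes in that library. It was also the lowest control for notch1b (0.529 times), notch2 (0.71 times) and jag1b (0.402 times), but not for the Delta ligands, jag2b or the her genes. Control replicate 3 was the low one for the her genes, at 0.646 times the mean of the others for her6 and 0.412 times for her9, where 5.04% and 1.08% of genes in that library had a lower ratio. Without control replicate 1 the TALE KD difference was -0.26 for notch1a and -0.29 for notch3, neither of which passed the adjusted test.

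At 12hpf none of the 10 genes was called, although 5 of them had TALE KD and control libraries that did not overlap. The called genes made up 1.55% of the 11640 tested, 34 of them higher and 147 lower in TALE KD. Receptors notch1a, notch2 and notch3 had all their TALE KD libraries above all their controls, a separation that 16.9% of all genes showed in that direction, and jag2b and her9 had all of them below, which 15.8% of genes showed. At an unadjusted p under 0.05 the count was 6 of 10, where 27.1% of all genes had such a p. DESeq2 called none of the 10, where it called 2.8% of all genes.

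The replicate numbers were taken to pair control and TALE KD libraries within a stage, from correlations in the data and not from the labels. At 12hpf these correlations set replicate 3 apart but hardly told replicates 1 and 2 from each other. Once the fit included replicate number as a block, 3 of the 10, notch1a, jag2b and her9, passed the adjusted p of 0.01, as 13.7% of all genes did. Without the block none of the 10 passed it, where 3.02% of genes did so. DESeq2 without a block placed the same 3 genes under that p (0.000139 for notch1a, 0.000424 for jag2b and 0.00209 for her9). The share of all genes under that p in DESeq2 was not counted, while 2.8% were called by it with the fold-change threshold. All 3 remained under the 1.5-fold threshold in these fits, so none was called, while the count over all genes moved from 181 to 476 (4.09%) with the block.

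**Figure D3:**
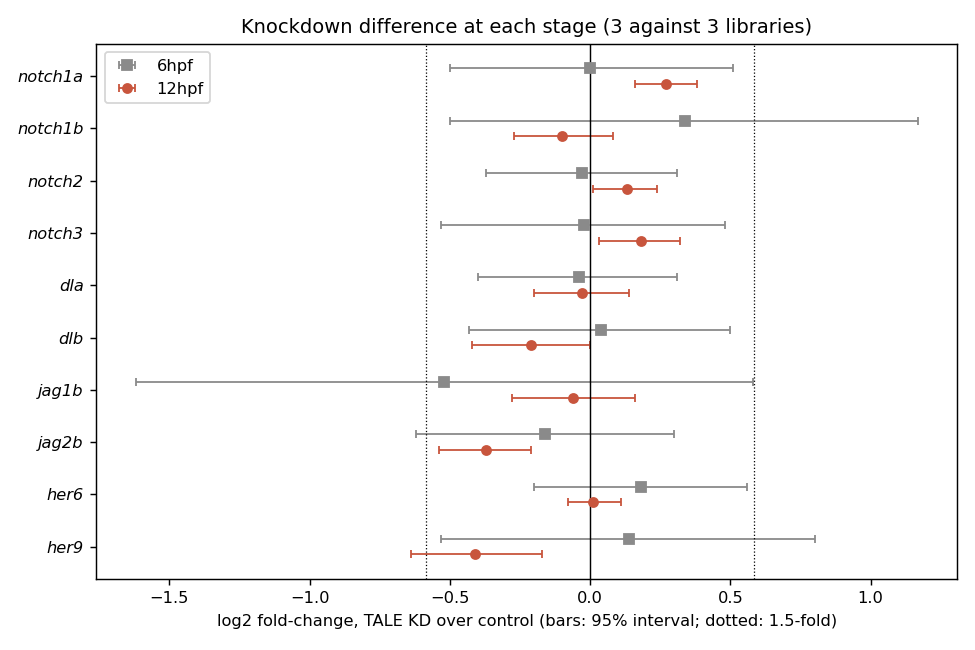
Log2 fold-change of TALE KD over control for the 10 genes at 6hpf (grey squares) and 12hpf (red circles), with 95% intervals from 3 against 3 libraries; dotted lines mark a 1.5-fold change. At 12hpf the estimates lie between -0.41 for her9 and 0.27 for notch1a, all inside the dotted lines, and the 6hpf intervals are the wider ones for every gene.

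Of the receptors, notch1a differed most. Its 161, 153 and 163 CPM in controls (159 ± 5.56, SD, n = 3) stood against 186, 195 and 200 CPM in TALE KD (194 ± 7.30, SD, n = 3). The lowest TALE KD library lay above the highest control, and the fold-change was 1.21, or 0.27 on the log2 scale (SE 0.05, 95% interval 0.16 to 0.38, adjusted p = 0.014, and 0.000913 with the block). The log2 fold-change was 0.24 to 0.30 with any single library left out (adjusted p = 0.0114 to 0.0745).

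Smaller differences in the same direction were measured for notch3 and notch2. The notch3 level was 265 ± 12.4 CPM in controls and 302 ± 21.8 CPM in TALE KD (SD, n = 3 each), a log2 fold-change of 0.18 (SE 0.06, 95% interval 0.03 to 0.32, adjusted p = 0.118). The notch2 level was 74.3 ± 1.33 CPM and 81.9 ± 3.77 CPM (SD, n = 3 each), a log2 fold-change of 0.13 (SE 0.05, 95% interval 0.01 to 0.24, adjusted p = 0.159). Neither passed the test, with the block or without, despite libraries that did not overlap.

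The duplicate receptor notch1b did not share that direction. It measured 35.5 ± 1.42 CPM in controls and 33.5 ± 3.13 CPM in TALE KD (SD, n = 3 each), with overlapping libraries and a log2 fold-change of -0.10 (SE 0.08, 95% interval -0.27 to 0.08, adjusted p = 0.473).

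Among the ligands jag2b was lower in TALE KD. The controls held 76.9, 75.5 and 79.1 CPM (77.2 ± 1.81, SD, n = 3) and the TALE KD libraries 54.3, 59.7 and 66 CPM (60.0 ± 5.82, SD, n = 3). Replicate 3 was the TALE KD library nearest to the controls and still lay below all of them. The level was 1.3-fold lower, a log2 fold-change of -0.37 (SE 0.07, 95% interval -0.54 to -0.21, adjusted p = 0.0167, and 0.000384 with the block). With any single library left out it was -0.45 to -0.31 (adjusted p = 0.00202 to 0.0816), the strongest being the fit without TALE KD replicate 3.

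The related jag1b gave no such difference, at 9.03 ± 0.254 CPM in controls and 8.73 ± 0.577 CPM in TALE KD (SD, n = 3 each). Its log2 fold-change was -0.06 (SE 0.09, 95% interval -0.28 to 0.16, adjusted p = 0.75), and its libraries overlapped.

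For the Delta ligands, dla measured 97.5 ± 9.60 CPM in controls and 96.6 ± 3.27 CPM in TALE KD (SD, n = 3 each), a log2 fold-change of -0.03 (95% interval -0.20 to 0.14, adjusted p = 0.853). The dlb libraries held 44.4, 45.1 and 38.1 CPM in controls and 34.3, 35.8 and 41 CPM in TALE KD. Control replicate 3 was the lowest control and TALE KD replicate 3 the highest TALE KD library, so that the groups overlapped through replicate 3, with a log2 fold-change of -0.21 (SE 0.09, 95% interval -0.42 to 0, adjusted p = 0.176). Without replicate 3 of both groups the value was -0.36 and passed the adjusted p of 0.01 (3.8e-05), below 1.5-fold, as notch1a (0.27), jag2b (-0.42) and her9 (-0.55) also did in that fit. Of 11529 genes tested in that fit, 729 (6.32%) were called and 5173 had an unadjusted p under 0.05. How many of them passed the adjusted p alone was not counted. The passing of dlb, notch1a, jag2b and her9 therefore cannot be set against a share of all genes.

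Of the her genes, her9 had the largest difference of the 10. The controls agreed closely at 193, 193 and 191 CPM (192 ± 0.653, SD, n = 3), whereas TALE KD libraries held 133, 132 and 174 CPM (146 ± 24.3, SD, n = 3). Replicates 1 and 2 lay well below the controls and replicate 3, at 1.32 times the mean of the other 2, lay closer to them. The level was 1.32-fold lower, a log2 fold-change of -0.41 (SE 0.10, 95% interval -0.64 to -0.17, adjusted p = 0.0435, and 0.00137 with the block). Leaving out TALE KD replicate 3 gave -0.55 (adjusted p = 0.000236) and leaving out TALE KD replicate 2 gave -0.33. Over all fits with a single library left out the adjusted p reached 0.161.

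In the same libraries her6 measured 170 ± 1.86 CPM in controls and 173 ± 3.44 CPM in TALE KD (SD, n = 3 each). The log2 fold-change was 0.01 (SE 0.04) with the narrowest 95% interval of the 10 at this stage, -0.08 to 0.11 (adjusted p = 0.902).

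Whether the knockdown difference itself differed between the stages was tested as an interaction over the 12 libraries, and none of the 10 genes passed in edgeR, where 0.0349% of all genes did. None had an unadjusted p under 0.05, as 8.67% of all genes had, and none passed in DESeq2, where 0.559% of all genes did. None passed with the block, which moved the count over all genes from 4 to 37 (0.323%). The lowest p of the 10 was that of her9, with an interaction of -0.53 on the log2 scale (SE 0.31, 95% interval -1.20 to 0.14, adjusted p = 0.653). For notch1a it was 0.28 (95% interval -0.29 to 0.85) and for jag2b -0.20 (95% interval -0.56 to 0.17), so a knockdown difference confined to 12hpf was not shown for any of them.

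Related genes that differed unlike each other were set side by side as ratios within a library, which do not depend on the scaling between libraries. These 4 pairs were chosen after the values had been seen, and since transcript lengths enter a ratio of counts, its change between groups and not its size is read. The ratio of notch1a to notch1b at 12hpf was 4.35, 4.46 and 4.62 in controls and 6.15, 5.77 and 5.49 in TALE KD. The ratio of jag2b to jag1b was 8.68, 8.11 and 8.88 in controls and 6.74, 6.57 and 7.3 in TALE KD. The ratio of her9 to her6 was 1.15, 1.14 and 1.12 in controls and 0.785, 0.761 and 0.993 in TALE KD.

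In each of these 3 pairs the groups were fully separated at 12hpf, with log2 differences of 0.37, -0.32 and -0.43. These are a description and were given no test. The numerators notch1a, jag2b and her9 were already separated by themselves, so their ratios are not separate evidence. How many other pairs of genes would separate was not counted. The ratio of dla to dlb overlapped, at 2.35, 2.26 and 2.27 in controls and 2.78, 2.8 and 2.3 in TALE KD. At 6hpf all 4 ratios overlapped between control and TALE KD.

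**Figure D4:**
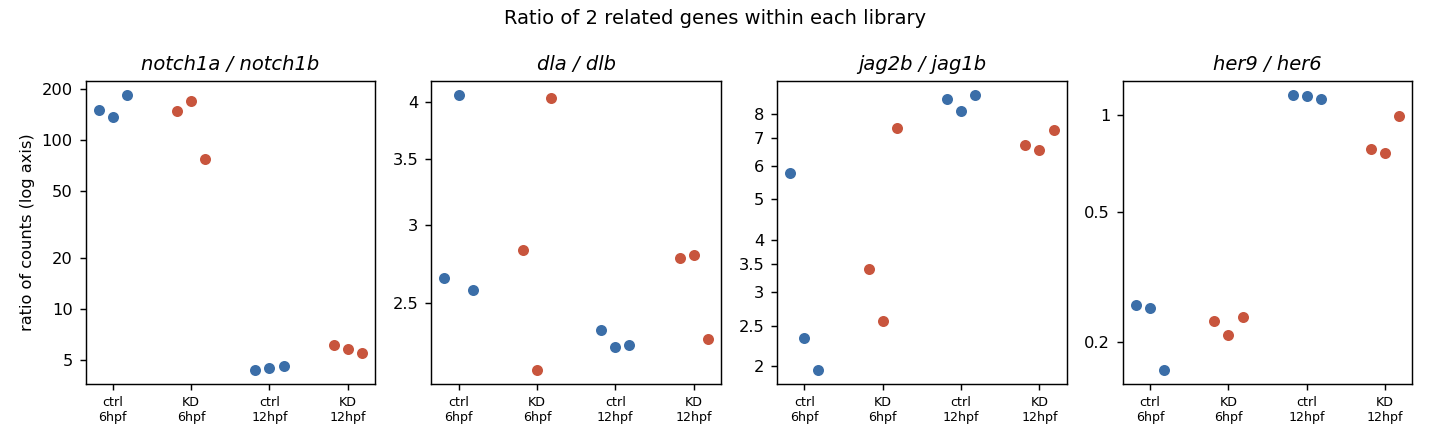
Ratio of counts of related genes within each library, on log axes whose ranges differ; points are replicates 1 to 3 of control (blue) and TALE KD (red) groups. At 12hpf the TALE KD points lie above the controls for notch1a over notch1b and below them for jag2b over jag1b and her9 over her6, while the 6hpf groups overlap in every panel.

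Further genes related to Notch signalling were taken from lists of genes grouped by function. Of the other ligands, dlc, dld, dll4 and jag1a were tested at 12hpf and none was called by edgeR or DESeq2, where 1.55% and 2.8% of all genes were. All 4 had an unadjusted p under 0.05, as 27.1% of all tested genes had. The lowest p was that of dll4, a Delta ligand known from blood vessels, which measured 1.97, 2.21 and 1.53 CPM in controls and 0.755, 0.831 and 0.944 CPM in TALE KD (log2 fold-change -1.18, SE 0.23, adjusted p = 0.0182). These groups did not overlap, and dll4 was called lower with the block (adjusted p = 0.00457), where 4.09% of all genes were called. The dlc and dld genes, described here after their values were seen, went the other way (log2 fold-changes 0.21 and 0.17, adjusted p = 0.0285 and 0.126). Of the 4 ligands, 2, dlc and dld, had TALE KD libraries all above the controls, as 16.9% of all genes had. Only 1, dll4, had them all below, as 15.8% of all genes had.

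Of 18 tested genes that process receptors or ligands, such as the gamma-secretase subunits and the glycosyltransferases, none was called by edgeR or DESeq2. Of all genes 1.55% and 2.8% were called by them. An unadjusted p under 0.05 was found for 8, as for 27.1% of all genes. The median log2 fold-change of the 18 was 0.06, and 11 lay above 0, as 49.3% of all genes did. The lowest p was that of poglut1, which adds O-glucose to the EGF repeats of Notch, at -0.47 (SE 0.12, adjusted p = 0.0435). It was 1 of 2 genes of the list with TALE KD libraries all below the controls, as 15.8% of all genes had. For 7 of the 18 these libraries lay all above the controls, as for 16.9% of all genes.

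Of 9 nuclear factors and modulators tested none was called by edgeR or DESeq2, where 1.55% and 2.8% of all genes were. An unadjusted p under 0.05 was found for 4 (27.1% of all genes). The feedback inhibitor nrarpa, itself a known Notch target, measured 295, 295 and 292 CPM in controls and 391, 382 and 370 CPM in TALE KD. Every TALE KD library was higher, by 0.36 on the log2 scale (SE 0.04, adjusted p = 0.00274), which passed the adjusted p and fell short of 1.5-fold (adjusted p = 0.000838 to 0.0258 with each library left out). The paralog nrarpb, named here after its values were seen, went the other way (log2 fold-change -0.25, SE 0.06, adjusted p = 0.038). Of the 9 genes, 3 had TALE KD libraries all above the controls and 1, nrarpb, all below, as 16.9% and 15.8% of all genes had.

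Among 17 other her, hes and hey genes tested at 12hpf, 0 were called by edgeR without the block, where 1.55% of all genes were. Both her13 and hey2 were called lower with the block, where 4.09% of all genes were called, and by DESeq2, where 2.8% were. An unadjusted p under 0.05 was found for 11 (27.1% of all genes), and 13 of the 17 had a log2 fold-change below 0, as 50.7% of all tested genes did, with a median of -0.22. The TALE KD libraries lay entirely below the controls for 7 of the 17 and entirely above for 1, as for 15.8% and 16.9% of all genes. The lowest p of the list was that of her13, at 10.5, 9.78 and 7.75 CPM in controls and 5.28, 6.3 and 4.85 CPM in TALE KD (log2 fold-change -0.78, SE 0.15, adjusted p = 0.0173, and 0.00048 with the block). The hey2 gene, named here after its values were seen, measured 5.58, 5.08 and 5.84 CPM in controls and 1.7, 2.03 and 3.77 CPM in TALE KD (log2 fold-change -1.12, SE 0.28, adjusted p = 0.0394, and 0.00109 with the block).

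Next came a list of proneural genes, together with markers of the first neurons such as elavl3 and isl1. Many proneural genes start neuronal differentiation and are repressed by her proteins. The tissue in which each gene was expressed cannot be read from whole-embryo RNA. Of the listed genes atoh1b and ascl1b were called lower at 12hpf, as were 1.26% of all tested genes. All 8 tested had a log2 fold-change below 0, as 50.7% of all genes had, with a median of -0.45. The TALE KD libraries lay entirely below the controls for 7 of them, as for 15.8% of all genes, and isl1 overlapped. The atoh1b gene measured 4.35, 3.25 and 2.94 CPM in controls and 0.0472, 0.185 and 0.132 CPM in TALE KD (log2 fold-change -4.69, SE 0.35, adjusted p = 0.000535). The ascl1b gene measured 5.95, 6.22 and 7.46 CPM in controls and 1.42, 1.75 and 3.07 CPM in TALE KD (log2 fold-change -1.63, SE 0.27, adjusted p = 0.00951).

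The TALE KD libraries of both genes were separated from the controls, and ascl1b kept its direction with each library left out (-2.03 to -1.45) while losing the call in 5 of those 6 fits, all but the one without TALE KD replicate 3 (adjusted p = 0.000559 to 0.0573). Summed over the 10 listed proneural and neuronal genes, the level was 129 to 134 CPM in controls and 77.8, 85.4 and 117 CPM in TALE KD. At 6hpf no tested gene of the lists was called, but of these 10 only ascl1b had enough counts for testing. The other 9 were not tested there, so whether they differed at 6hpf is not known. Of the other her, hes and hey genes 7 were not tested at that stage.

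**Figure D5:**
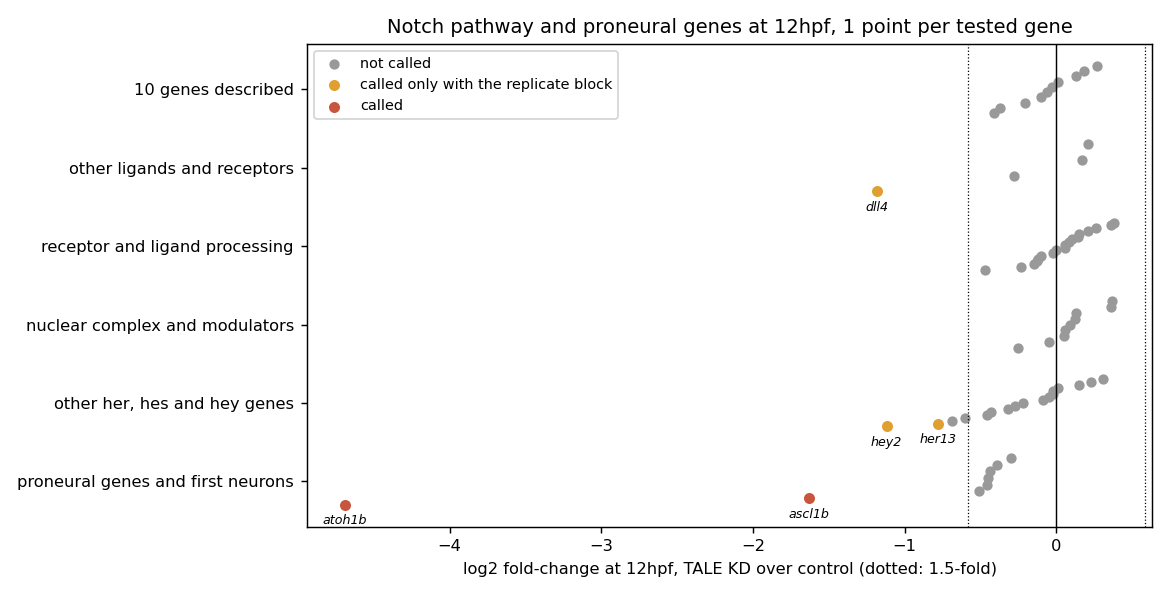
Log2 fold-change of TALE KD over control at 12hpf, 1 point per tested gene, for the 10 genes described and the 5 lists of Notch pathway and proneural genes; dotted lines mark a 1.5-fold change. The 10 genes lie between the dotted lines, all 8 tested proneural and neuronal genes lie left of 0 with atoh1b at -4.69 and ascl1b at -1.63 called, and dll4, her13 and hey2 are called by edgeR only with the replicate block.

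Some tissue markers differed between the 12hpf groups as well. Neural plate markers summed to 1170 to 1200 CPM in controls and 1020 to 1070 CPM in TALE KD, and 4 of 7 had TALE KD libraries all below the controls, as 15.8% of all genes had. Of these markers sox1a was called lower (1.26% of all genes were), at 11.6, 11.8 and 11.4 CPM and 7.6, 7.45 and 7.94 CPM (log2 fold-change -0.61, SE 0.09, adjusted p = 0.00565). Genes of the p53 response, which morpholinos can induce, summed to 923 to 1290 CPM in controls and 1370 to 1740 CPM in TALE KD, and for all 4 the lowest TALE KD library exceeded the highest control, as for 16.9% of all genes. The cell cycle inhibitor cdkn1a measured 7.14, 8.13 and 12.6 CPM in controls and 37.6, 43.6 and 19.5 CPM in TALE KD, lowest among the latter in replicate 3. Its log2 fold-change was 1.84 (SE 0.32, adjusted p = 0.0116), and it was called with the block (adjusted p = 0.000561) and by DESeq2 (adjusted p = 0.000257). The block also called ccng1 higher, at 0.59 (adjusted p = 0.00456), a gene named here after its values were seen. With the block 4.09% of all genes were called, and by DESeq2 2.8%.

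Non-neural ectoderm markers summed to 11600 to 13100 CPM in controls and 11300 to 11900 CPM in TALE KD. Most of it was krt4 and krt5, whose control means were 8470 and 3790 CPM, beside 146 CPM for tp63 and 20.6 CPM for foxi1. Of the 4, 1 was called higher, as 0.292% of all genes were. It was foxi1, at 38.4, 37.3 and 29.8 CPM in TALE KD against 21.2, 20.4 and 20.2 CPM (log2 fold-change 0.75, adjusted p = 0.00431). The krt4 gene, named here after its values were seen, was lower in every TALE KD library, as 15.8% of genes were (log2 fold-change -0.11, adjusted p = 0.19), and tp63 and krt5 overlapped. The calls of sox1a and foxi1 were lost in 5 of the 6 fits with a library left out, TALE KD replicate 3 being the exception for both.

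The summed level of somite and presomitic mesoderm markers overlapped, at 579 to 620 CPM in controls and 591 to 622 CPM in TALE KD, while its members went both ways. Of 6 tested, msgn1 and tbx16 were higher in every TALE KD library, as 16.9% of all genes were. The genes tbx6, myod1 and myf5 were lower in every one, as 15.8% of all genes were. None of the 6 was called, where 1.55% of all tested genes were. The lowest p was that of myf5, a myogenic factor, at 73.8, 75.2 and 71.5 CPM in controls and 58.3, 58.5 and 57.1 CPM in TALE KD (log2 fold-change -0.36, SE 0.05, adjusted p = 0.00399).

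Endoderm markers summed to 52.9 to 56.7 CPM and 56.7 to 67.3 CPM, most of it foxa2, which measured 49.6 to 50.8 CPM over the 6 libraries. The endoderm factor sox32 had the lowest p of these, at 2.05, 1.87 and 0.995 CPM in controls and 6.7, 5.31 and 2.28 CPM in TALE KD, with replicate 3 the lowest of each group (log2 fold-change 1.49, SE 0.42, adjusted p = 0.0605). The related sox17, named after its values were seen, measured 3.94, 4.09 and 2.2 CPM and 9.81, 8.7 and 4.28 CPM (log2 fold-change 1.12, SE 0.34, adjusted p = 0.076). Both were called higher with the block (adjusted p = 0.000111 and 0.000115) and by DESeq2 (0.00242 and 0.00544), where 4.09% and 2.8% of all genes were called. Axial mesoderm markers summed to 59 to 69.5 CPM and 60.2 to 67.2 CPM and both overlapped, the lower p being that of shha (log2 fold-change -0.07, adjusted p = 0.579).

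The part of tissue composition and of the p53 response in the differences of notch1a, jag2b and her9 was not tested. At 6hpf the neural plate sums were 2390 to 2540 CPM and 2340 to 2550 CPM and the p53 sums 2440 to 2920 CPM and 2150 to 2650 CPM, overlapping in both.

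For each of the 10 the gene with the most similar pattern was found by Pearson's r of log2(CPM + 1) over the 12 libraries, as a description of libraries that mainly differ in stage. The her9 pattern was closest to olig4 (r = 0.998), her6 to pcdh19 (0.998), jag2b to wu:fc13c02 (0.999) and dla to dcaf11 (0.998). Patterns closest to dlb, jag1b, notch1b and notch2 were those of si:ch211-220f12.1 (0.997), dhcr7 (0.997), zgc:136410 (0.999) and cltcb (0.993). For these 8 genes between 1408 and 2392 others exceeded an r of 0.95, so the nearest gene is 1 of many that follow stage. For notch1a, closest to chd8 (0.979), 6 genes did so, and for notch3, closest to eif4g1a (0.978), 16.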

How the data were processed

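The authors aligned strand-specific trimmed reads to the DanRer10 (GRCz10) transcriptome, after a FastQC check, and quantified genes with RSEM 1.2.28, per the submitters' processing notes and the study's methods. The deposited values are named TPM but are RSEM's estimated counts, since each column has its own total (11884805 to 40924982) and 75.4% to 80% of values are whole within 0.005. They were rounded to integers, and testing was limited to genes averaging 10 counts or more across a fit's libraries (11640 at 12hpf, 10202 at 6hpf, 11450 over both stages). The test was edgeR 4.0.16's glmQLFTest with TMM factors in R 4.3.3. Each stage was fitted separately for TALE KD against control, and 1 fit of 4 groups over 12 libraries gave the stage and interaction tests. P-values were adjusted by Benjamini-Hochberg over all genes tested. The interaction was called on adjusted p alone. Standard errors came from the fold-change and its F statistic, and 95% intervals used the t quantile of edgeR's total degrees of freedom. DESeq2 1.42.0 (the authors' own test), library totals, no filter, a replicate block, 1 fit for all libraries, each library left out and replicate 3 of both 12hpf groups left out were the alternatives. Intervals cover the spread between libraries, and if replicates shared a clutch p-values cover that spread alone.

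Deviations from the group mean correlated between same-numbered control and TALE KD libraries (r was 0.44, 0.33 and 0.48 at 6hpf and 0.34, 0.37 and 0.58 at 12hpf, over 11450 genes). The numbers were therefore taken to pair libraries within a stage, from the data and not from the labels. At 12hpf replicates 1 and 2 also correlated across numbers (0.32 and 0.30). Across stages r was -0.10 to 0.01. The block of the stage comparisons was nevertheless a single replicate factor over all 12 libraries, so it also tied same-numbered libraries of both stages. The interaction's block was fitted within each stage. Chi-square per degree of freedom between replicates was 2.69 to 25.5, so no library was counted as a repeat.

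The procedure was tested on simulated counts. Of 100 genes changed 2-fold, 97 were recovered at 12hpf, 89 at 6hpf and 54 in the interaction test. The simulation gave every gene the same fixed dispersion, changed only genes above a minimum expected count and held no outlying library. These rates therefore check the procedure and do not measure what the real libraries, with replicate 3 apart at 12hpf, could detect. The 10 genes, the gene lists and the alternatives were chosen with earlier results of these data known, and alternatives for genes named from the lists were added after seeing the data. From each list the genes called in a TALE KD comparison are named, or else the gene with the lowest p at 12hpf. Listed genes not found in the tables (such as jag2a, maml1 and her4.1) were not analysed here. Symbols come from the tables, and no sequences or coordinates were used.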

Additional observations from a re-analysis of the deposited data

How the results depend on the processing

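In both TALE KD comparisons and in the interaction 0 of the 10 genes were called under every alternative run, and in both stage comparisons the 9 genes kept their direction. The count over all genes was less stable. At 12hpf it was 181, and 326 with DESeq2, 476 with the replicate block, 729 without replicate 3 of both groups and 20 to 472 with each library left out. At 6hpf it was 4, and 28 with DESeq2, 10 without a filter, 23 with the replicate block, 15 in the fit over all 12 libraries and 0 to 1 with each library left out. For the interaction it was 4, and 64 with DESeq2, 37 with the replicate block, 25 without replicate 3 of the 12hpf groups and 2 to 21 with each library left out.

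Library totals in place of TMM moved the median of all genes from 0.09 to 0.33 in the control stage comparison and to 0.32 in TALE KD, and the share of lower calls from 44.2% to 33.5% and from 44.4% to 33.2%. With them notch1a in TALE KD was 0.061. The replicate block gave 0.037 for notch3 at 6hpf, and dla in the interaction was -0.032 without replicate 3 of the 12hpf groups. With each library left out, log2 fold-changes that crossed 0 at 12hpf were those of dla (-0.11 to 0.021) and her6 (-0.002 to 0.027). At 6hpf they were notch1a (-0.26 to 0.17), notch2 (-0.18 to 0.15), notch3 (-0.29 to 0.18), dla (-0.15 to 0.071), dlb (-0.07 to 0.18), her6 (-0.0014 to 0.32) and her9 (-0.18 to 0.36). In the interaction they were notch2 (-0.0037 to 0.32), dla (-0.092 to 0.13) and her6 (-0.29 to 0.022). None of these values passed the test, and the cause was not tested.

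In the single fit over all 12 libraries the adjusted p at 12hpf was 0.0201 for jag2b, 0.251 for her9 and 0.425 for notch1a. The control stage call of notch3 was also lost with DESeq2 (0.58). At 6hpf 5 to 27 counts of notch1b and jag1b per library limit what can be seen.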
